A study of Macaca mulatta with 16 samples.

Results

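Open chromatin was compared between memory CD4+ and memory CD8+ T cells of rhesus macaques in 8 ATAC-seq libraries, 4 of each lineage, out of 16 libraries in the study. They were the lists of peaks whose names mark them as memory cells, taken before and after treatment together and matched by animal and time through the titles. The cells were sorted from the peripheral blood of 2 animals, with 10000 cells per library. Each animal gave both populations before any treatment and again after 2-hydroxypropyl-beta-cyclodextrin, a cyclic oligosaccharide able to extract cholesterol, given under the skin as a 15% (w/w) solution at 1 ml/kg each day for up to 120 days. The 4 memory CD4+ libraries are thus animal 1 before and after and animal 2 before and after, and the 4 memory CD8+ libraries are the same. No animal without treatment was among these libraries, and the age of the animals is not given in the sources used here. File names number animal 2 differently in each population, so its pairing across lineages rests on the titles.

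CD4+ T cells read antigen on class II molecules and mostly act as helpers, which instruct other immune cells through cytokines and contact. CD8+ T cells read antigen on class I molecules and act mainly by killing infected or altered cells. Memory cells of either lineage descend from cells that have met antigen and keep part of their regulatory DNA accessible, which allows a fast recall response. In ATAC-seq a transposase cuts DNA where nucleosomes and other proteins leave it free, and a peak is a stretch where cuts pile up, often an enhancer or a promoter.

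Merging the overlapping peaks of the 8 lists (at least 1 bp in common) gave 50215 regions, and a region counts as open wherever the list has a peak inside it. The depth of sequencing is unknown for these lists, which means that a region without a peak was undetected and need not have been closed. Positions are in rheMac10. An annotation of this build was not used here, so regions are given without gene names and the sorted cell types were not checked against their marker genes. Strength means the area score of the authors' peak caller. In the main results it was used only within its own list. It is given as the percentile of a peak among all peaks of that list, except where single regions are compared in strength between the lineages. There the summed score of a region was ranked in each library among the regions open in every library compared. The libraries are from 2 animals at 2 times. The main tests treated the libraries of a lineage as independent, although those before and after treatment came from the same animals. Their p-values thus refer to these libraries and not to many animals.

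The lists of both lineages were of similar size. Memory CD4+ lists held 39667, 42034, 40901 and 40703 peaks (animal 1 before and after, then animal 2 before and after), and memory CD8+ lists held 40316, 39426, 40744 and 39519. The means were 40826 ± 970 and 40001 ± 636 (SD, n = 4), a difference within the spread of the libraries (exact permutation test, two-sided, p = 0.171, adjusted over 4 list totals 0.684). Bases covered, 62.2 ± 1.24 Mb against 61.1 ± 4.68 Mb, and median peak width, 1164 ± 27.2 bp against 1158 ± 88.7 bp (SD, n = 4), also did not pass the exact permutation test (p = 0.686 and 0.971, adjusted p = 1.0 for both). The memory CD8+ library of animal 1 before treatment stood apart with 55.4 Mb and a median width of 1036 bp, against 59.6 to 66.3 Mb and 1148 to 1228 bp in the other memory CD8+ libraries. Without it, bases covered and median width were higher in CD8+ cells by 0.766 Mb and 34.8 bp, and neither difference passed the test. The widest peak of each memory CD8+ list measured 41878, 51295, 50531 and 51274 bp, and that of each memory CD4+ list 36490, 38129, 46085 and 33710 bp, ranges that overlap.

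On average, peak lists of different lineages were less alike than those of the same lineage. The Jaccard index, the intersection of a pair of lists in bp divided by their union, was 0.701 ± 0.0177 (SD, 16 pairs of libraries, 0.671 to 0.726) between the lineages. Within a lineage it was 0.783 ± 0.0327 (SD, 12 pairs, 0.703 to 0.83), and the lowest value was that of the memory CD8+ lists of both animals before treatment. Lists of the same animal and time reached 0.699 to 0.726 across lineages, so the ranges overlapped slightly. The same population of the same animal at the other time reached 0.823 to 0.83 in CD4+ cells and 0.773 to 0.776 in CD8+ cells. Pairs share libraries, so these values are a description without a test.

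Most of the open genome was shared by both lineages. Of the 50215 regions, 27662 (55.1%) were open in all 8 libraries and 5443 (10.8%) in 1 library. At the other extreme, 1551 regions were open in all 4 memory CD4+ and no memory CD8+ library, and 1603 in all 4 memory CD8+ and no memory CD4+ library. These are named CD4+ lineage regions and CD8+ lineage regions below. The names refer to memory cells only. In naive cells the full pattern of the same lineage was seen at 175 (11.3%) and 207 (12.9%) of them. Just short of these patterns, 878 regions were open in 4 CD4+ and 1 CD8+ library and 811 in 3 CD4+ and 0 CD8+ libraries. On the CD8+ side the corresponding numbers were 394 and 781. Of the regions open in exactly 4 of the 8 libraries, 758 were open in 2 of each lineage, of which 272 were open in all 4 libraries of animal 1 and none of animal 2, and 272 the reverse. Only 4 were open in all libraries before treatment and no library after, and 12 the reverse.

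**Figure D1:**
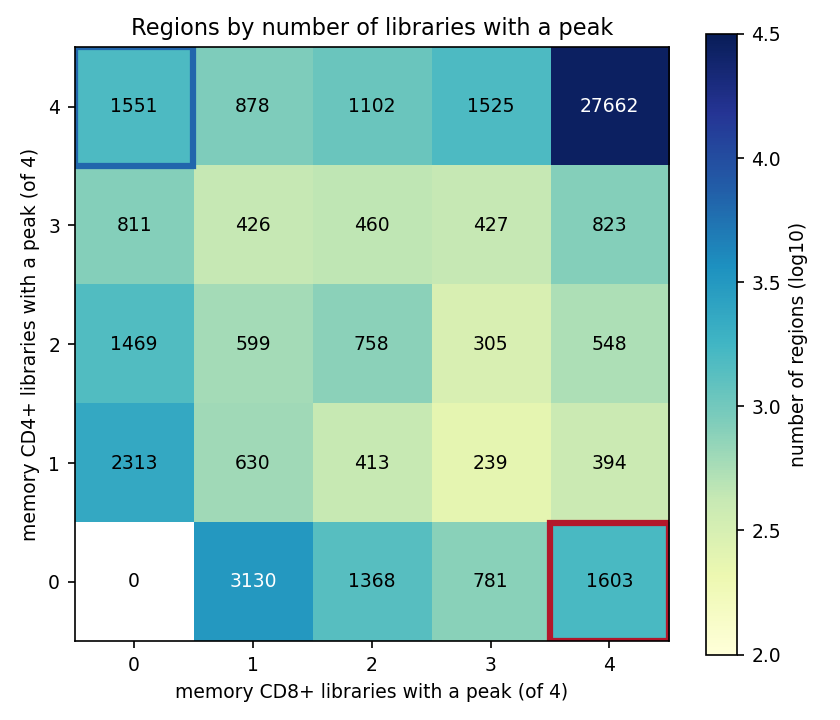
Number of merged regions by how many of the 4 memory CD4+ libraries (vertical axis) and of the 4 memory CD8+ libraries (horizontal axis) had a peak in them, with colour on a log10 scale. The outlined corners hold the 1551 CD4+ and 1603 CD8+ lineage regions, and the top right corner the 27662 regions open in all 8 libraries.

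Regions open in 4 of the 8 libraries are the ones for which Fisher's exact test on 4 against 4 can give a p of 0.05 or less. There were 4577 such regions, and 3154 of them (68.9%) passed, namely the 1551 CD4+ lineage regions (33.9% of those tested) and the 1603 CD8+ lineage regions (35.0%). Each had the smallest p the design allows (two-sided p = 0.0286 by Fisher's exact test, 0.0415 after Benjamini-Hochberg adjustment). The call needs this filter and all 8 libraries: over all 22553 regions not open everywhere 0 passed (lowest adjusted p 0.204 by Fisher's exact test, 3154 at an unadjusted p under 0.05). With any library left out (adjusted p 0.0556 to 0.0638 by Fisher's exact test, 3407 to 3838 at an unadjusted p under 0.05), and in the exact McNemar test over the 4 animal and time pairs (smallest possible p 0.125, 0 at an unadjusted p under 0.05), 0 passed.

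Regions chosen in one animal were also read in the other. In animal 1 alone 3244 regions were open in both CD4+ and no CD8+ library, and in animal 2 alone 3423. On average 77.8% ± 3.70 of them (SD, n = 4 libraries, 73.0 to 81.4%) were open in a CD4+ library of the other animal, and 19.4% ± 2.85 (16.0 to 22.2%) in a CD8+ library of it. For the 2694 and 3010 regions open in both CD8+ and no CD4+ library of an animal, 77.1% ± 3.94 (SD, n = 4, 72.1 to 80.4%) were open in a CD8+ library of the other animal and 11.1% ± 2.90 (8.13 to 15.0%) in a CD4+ library. Over all 50215 regions, 55.1% were open in all 8 libraries, so 77.8% and 77.1% alone do not set these regions apart. What they describe is the contrast with the other lineage of the same animal. The full pattern was repeated in the other animal at 47.8% of the regions of animal 1 and 45.3% of those of animal 2 for CD4+ cells, and at 59.5% and 53.3% for CD8+ cells. For comparison, of all 50215 regions 3423 had the CD4+ pattern and 3010 the CD8+ pattern in animal 2. In animal 1 these were 3244 and 2694. The reverse pattern in the other animal was seen at 3 regions in each direction. Before treatment 2446 regions were open in both CD4+ and no CD8+ library and after treatment 3105, and the 1551 shared by both times were 63.4% and 50% of these. For CD8+ regions the numbers were 2454 and 2409, with 1603 shared (65.3% and 66.5%). Complete reversal between times was seen at 4 regions in each direction.

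Compared with regions open in all 8 libraries, lineage regions were mostly narrow and weak peaks, but they were wider and stronger than other regions open in 4 of 8. CD4+ lineage regions had a median width of 1009 bp and a median strength at the 24.7th percentile of their lists, and CD8+ lineage regions 1130 bp and the 32.0th percentile. Regions open in all 8 libraries had 2021 bp and the 63.3rd percentile, and the other regions open in 4 of the 8 had 813 bp and the 14.0th percentile. These are widths of merged regions, which can grow with the number of lists merged. In single libraries the median bases covered were 783 to 836 bp for CD4+ and 759 to 927 bp for CD8+ lineage regions. They were 1415 to 1752 bp for regions open in all 8 and 569 to 671 bp for the other regions open in 4. In the 4 libraries in turn, the median percentile was 22.4, 26.5, 27.7 and 24.8 for CD4+ lineage regions and 31.6, 34.9, 37.2 and 30.1 for CD8+ lineage regions. All 4 values of the CD8+ set thus lay above all 4 of the CD4+ set, although each was ranked in different lists. A mean percentile above 50 was reached by 7.54% of CD4+ and 16.7% of CD8+ lineage regions, and one above 75 by 4 and 17 regions. Where each library had 1 peak, the 4 summits of a region lay within 100 bp in 961 of 1479 CD4+ (65.0%) and 937 of 1449 CD8+ lineage regions (64.7%). Summits were not compared in the other classes of region.

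The strongest CD4+ lineage region lay on chromosome 11 at 6952770 to 6957770 and was 5001 bp wide. Its peaks stood at the 98.4, 95.6, 98.2 and 95.9th percentile in the 4 memory CD4+ libraries (97.0 ± 1.47, SD, n = 4), with no peak in any memory CD8+ library. Naive CD4+ libraries, from cells that have not yet met antigen, covered 4715 to 4978 bp of it, and naive CD8+ libraries 661 to 1790 bp. A pair of strong regions lay close together on chromosome 10, at 88198767 to 88203069 (76.2, 81.0, 92.0 and 86.9th percentile) and at 88227924 to 88229843 (70.0, 72.9, 80.7 and 74.4th percentile). In the naive cells the former was open in all 4 CD4+ and no CD8+ library, while the latter was open in all 8. Another 3 regions were open in naive cells of both lineages but absent from memory CD8+ lists. These were on chromosome 16 at 3952062 to 3957119 (80.6, 80.2, 79.8 and 73.7th percentile in memory CD4+ libraries), on chromosome 6 at 77752774 to 77755958 (80.7, 82.3, 69.7 and 76.6) and on chromosome 16 at 3668949 to 3670753 (71.1, 74.0, 72.5 and 72.2). Open in all 4 naive CD4+ and no naive CD8+ library were the regions at 48443846 to 48445961 of chromosome 8 (mean percentile 70.6), at 46539667 to 46541861 of chromosome 4 (68.8) and at 38533126 to 38537619 of chromosome 3 (68.4). Among these 10, the region on chromosome 10 at 86693646 to 86696908 (75.2, 78.2, 62.9 and 62.9th percentile) was the only one with no peak in any naive library.

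The strongest CD8+ lineage region, on chromosome 13 at 19088742 to 19099298, was 10557 bp wide. It stood at the 99.8, 99.7, 99.8 and 99.3rd percentile in the 4 memory CD8+ libraries (99.7 ± 0.255, SD, n = 4). Naive CD8+ libraries covered 9096 to 9992 bp of it and naive CD4+ libraries 1402 to 1603 bp, so the stretch was wide in both CD8+ populations. A neighbour on the same chromosome at 19023336 to 19027270 stood at the 90.1, 88.8, 89.6 and 90.0th percentile in memory CD8+ and at the 90.4 to 94.4th in naive CD8+ libraries, with no peak in any naive CD4+ library. On chromosome 9, the region at 97139529 to 97144289 stood at the 91.8, 93.2, 93.4 and 92.1th percentile, against 60.0 to 71.8 in naive CD8+ libraries. Its neighbour at 97093065 to 97098683 was uneven between libraries, at the 67.0, 88.7, 88.8 and 87.4th percentile, against 48.3 to 51.8 in naive CD8+ cells. On chromosome 12 the region at 52600497 to 52602992 (89.6, 90.5, 87.0 and 87.4th percentile) lay above its naive CD8+ values of 60.8 to 76.3 as well. The other 5 of these 10 lay at 199679688 to 199683487 of chromosome 1 (mean percentile 84.9), at 9365436 to 9368980 (83.9) and 9353139 to 9357692 (82.0) of chromosome 11, at 80597598 to 80600697 of chromosome 8 (82.2) and at 22425508 to 22430162 of chromosome 13 (82.0). Except for the widest one, none of them had a peak in any naive CD4+ library, and all 10 were open in 3 or 4 naive CD8+ libraries.

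**Figure D2:**
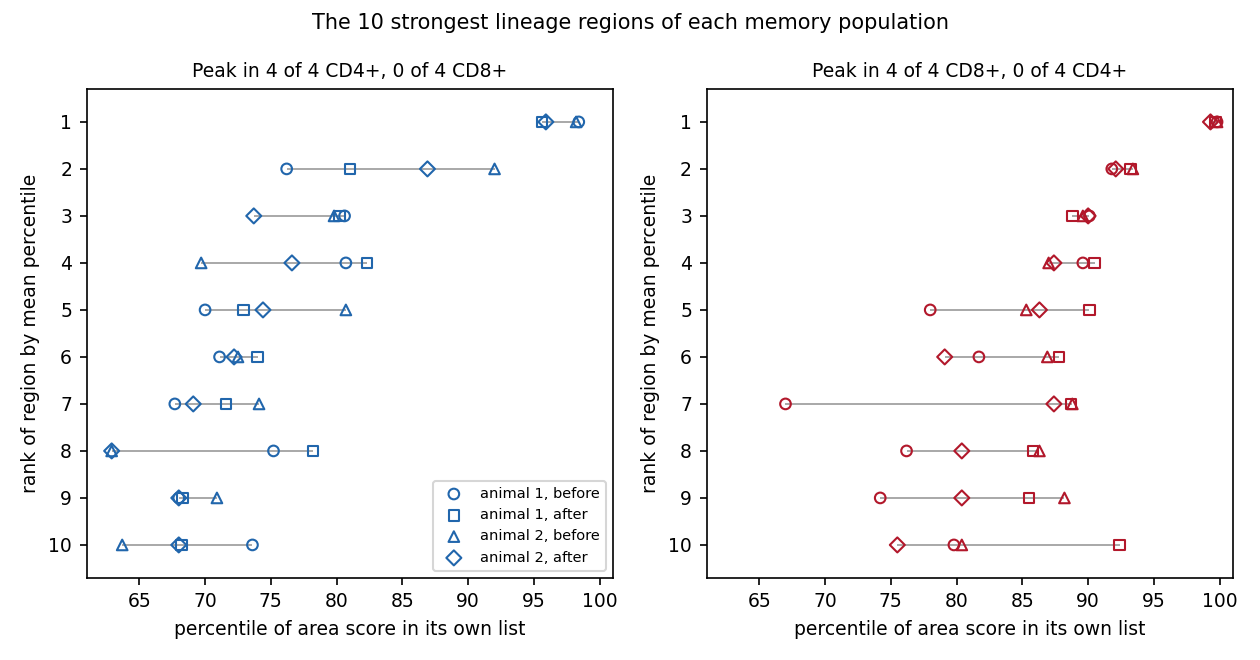
Within-list percentile of the area score (horizontal axis) at the 10 strongest CD4+ (left) and CD8+ (right) lineage regions, ranked by mean percentile (vertical axis), with 1 symbol per open library and a line over its range. The strongest CD8+ region lies between 99.3 and 99.8 in its 4 libraries, and the percentiles of several regions differ by more than 10 points between libraries, as in the CD8+ region of rank 7 with 67.0 to 88.8.

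Read in the naive libraries, which took no part in choosing them, CD4+ and CD8+ lineage regions behaved differently. CD4+ lineage regions were open in 80.7, 78.9, 80.5 and 81.1% of cases in the naive CD4+ libraries (80.3 ± 0.953, SD, n = 4) and in 34.9, 43.2, 58.9 and 59.7% in the naive CD8+ libraries (49.2 ± 12.2). The difference of −31.1 points, CD8+ minus CD4+, left no overlap (exact permutation test, two-sided, p = 0.0286, adjusted 0.0286, the smallest that 4 against 4 can give). CD8+ lineage regions were open in 5.12, 5.36, 4.93 and 4.30% of cases in naive CD4+ libraries (4.93 ± 0.453) and in 31.2, 32.3, 27.9 and 24.8% in naive CD8+ libraries (29.1 ± 3.36, SD, n = 4). The difference of 24.1 points again left no overlap (exact permutation test, two-sided, p = 0.0286, adjusted 0.0286). Over the 4 pairs of animal and time the exact sign-flip test gave p = 0.125 for both, the smallest that 4 pairs allow, so the call ends with the pairing. Other regions open in 4 of the 8 memory libraries were open in 45.7% ± 1.21 of cases in naive CD4+ and 38.7% ± 8.20 in naive CD8+ libraries (SD, n = 4), a difference of −7.08 points. Regions open in all 8 memory libraries were open in 95.1% ± 0.192 and 94.0% ± 0.837, a difference of −1.03 points. All of these comparison values lean to naive CD4+ cells, as the CD4+ lineage regions do and the CD8+ lineage regions do not. The naive CD8+ lists of animal 1 were the shortest of all, with 36307 and 37966 peaks against 39426 to 42034 in the other 14. In animal 2 alone the differences were −21.5 and 21.8 points, and in animal 1 alone −40.7 and 26.5.

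**Figure D3:**
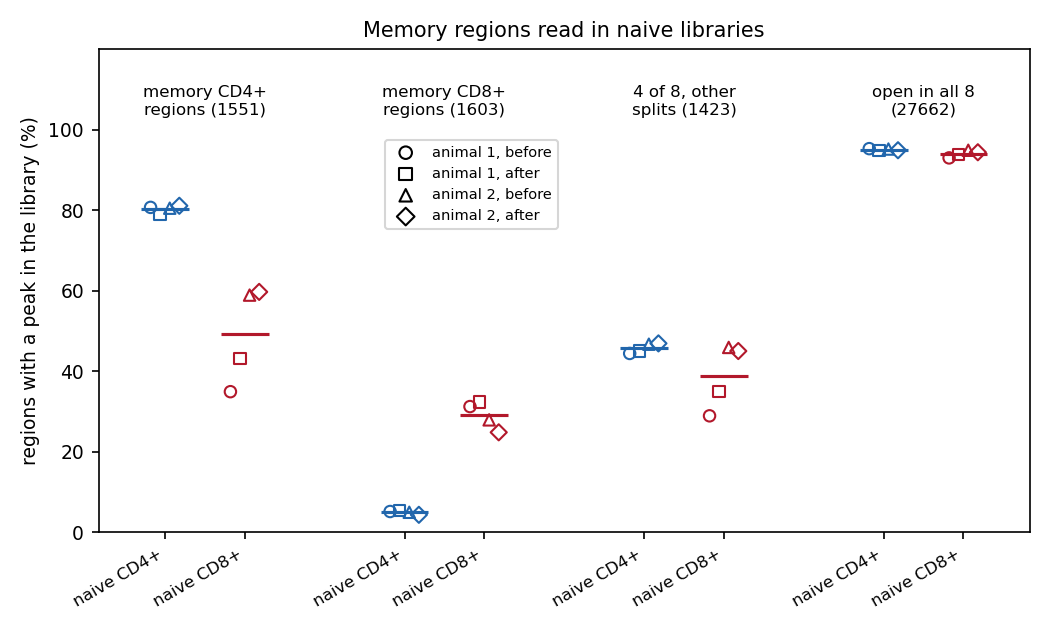
Share of regions (percent, vertical axis) with a peak in each naive CD4+ (blue) and naive CD8+ (red) library, for the CD4+ and CD8+ lineage regions of memory cells, the other regions open in 4 of 8 memory libraries, and the regions open in all 8; symbols are libraries and bars are means of 4. CD4+ lineage regions lie at 78.9 to 81.1% in naive CD4+ libraries, while CD8+ lineage regions lie at 24.8 to 32.3% in naive CD8+ libraries and at 4.30 to 5.36% in naive CD4+ libraries.

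Region by region, the memory CD8+ set was largely one of peaks without a naive counterpart. Of the CD8+ lineage regions 944 of 1603 (58.9%) were open in no naive library, against 168 of 1551 CD4+ lineage regions (10.8%). Conversely, 479 CD4+ lineage regions (30.9%) were open in all 8 naive libraries, so that memory CD8+ cells were the only population without any peak there, against 33 CD8+ lineage regions (2.06%). A full lineage pattern in both states, with peaks in all 4 naive libraries of the same lineage and none of the other, was seen at 175 CD4+ (11.3%) and 207 CD8+ lineage regions (12.9%). No region of either set had the opposite pattern in naive cells. When a naive peak had to cover at least 50% of a region, 212 CD4+ (13.7%) and 1135 CD8+ lineage regions (70.8%) had no naive peak, and 388 (25%) and 20 (1.25%) had a peak in all 8.

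Among regions with no naive peak, those of CD8+ cells were the stronger in their own lists, with a median mean percentile of 28.6 against 18.2 for CD4+ cells. The strongest on the CD8+ side lay on chromosome 11 at 10766200 to 10769721 (66.0, 79.6, 85.4 and 80.0th percentile), chromosome 13 at 66031231 to 66033642 (76.0, 73.8, 78.7 and 69.4) and chromosome 6 at 144310862 to 144314360 (70.9, 80.5, 72.9 and 71.0). On the CD4+ side, after the region on chromosome 10 given above, they lay on chromosome 2 at 14682802 to 14684905 (45.9, 47.9, 52.1 and 47.5) and chromosome 7 at 154923496 to 154924550 (40.9, 40.0, 52.3 and 41.0). For CD8+ lineage regions the median was 28.6 with no naive peak, 40.4 with peaks in 1 to 7 naive libraries and 24.6 in the 33 with peaks in all 8. For CD4+ lineage regions it was 18.2, 23.7 and 30.9, so the order of the classes differed between the lineages.

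Where lineage regions lay near each other, they were mostly of the same lineage. When those at most 50 kb apart were joined, 1733 of 3154 (54.9%) stayed alone and 1421 (45.1%) had at least 1 neighbour, in 523 groups. A neighbour of the same lineage was next to 561 CD4+ (36.2%) and 749 CD8+ lineage regions (46.7%). Of 898 neighbouring pairs, 831 (92.5%) were of the same lineage, while the sets were of similar size (1551 CD4+ and 1603 CD8+ lineage regions). Neighbours can be parts of one open stretch split into several peaks, which was not tested. Groups of 5 or more regions of only one lineage numbered 17 for CD4+ and 29 for CD8+ cells. The largest group held 13 CD8+ lineage regions on chromosome 11 at 9353139 to 9463252. Of the 18 memory regions in that stretch none was open in all 8 libraries, and the remaining 5 were also open in more CD8+ than CD4+ libraries. In naive cells 7 of the 13 were open in all 4 CD8+ and no CD4+ library, and 4 in none. There were 5 CD8+ groups of 9 or more lineage regions, and the 3 shortest of those with 9 are described here. On chromosome 9 at 97064455 to 97169725, 4 of the 9 had no naive peak, as did 4 of the 9 on chromosome 9 at 67117032 to 67225614. On chromosome 16 at 9831642 to 9970484, 8 of the 9 had no naive peak.

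No CD4+ group reached 9 regions. The largest, on chromosome 2 at 14673713 to 14768534 (94.8 kb), held 8 CD4+ lineage regions among 17 memory regions. Peaks in all 8 libraries were found at 3 of the 17, and 7 of the 8 lineage regions had no naive peak. On chromosome 1 at 96497630 to 96640085 there were 7, of which 4 were open in all 4 naive CD4+ and no naive CD8+ library. On the X chromosome at 132729123 to 132772506 there were 6, of which 5 had that pattern. A group of 6 on chromosome 16 at 74630279 to 74698332 had none with that pattern, although all 6 had a peak in some naive library. The CD4+ groups thus included both a group on chromosome 2 with no naive peak at 7 of its 8 lineage regions and a group that was largely CD4+ in both states on the X chromosome.

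**Figure D4:**
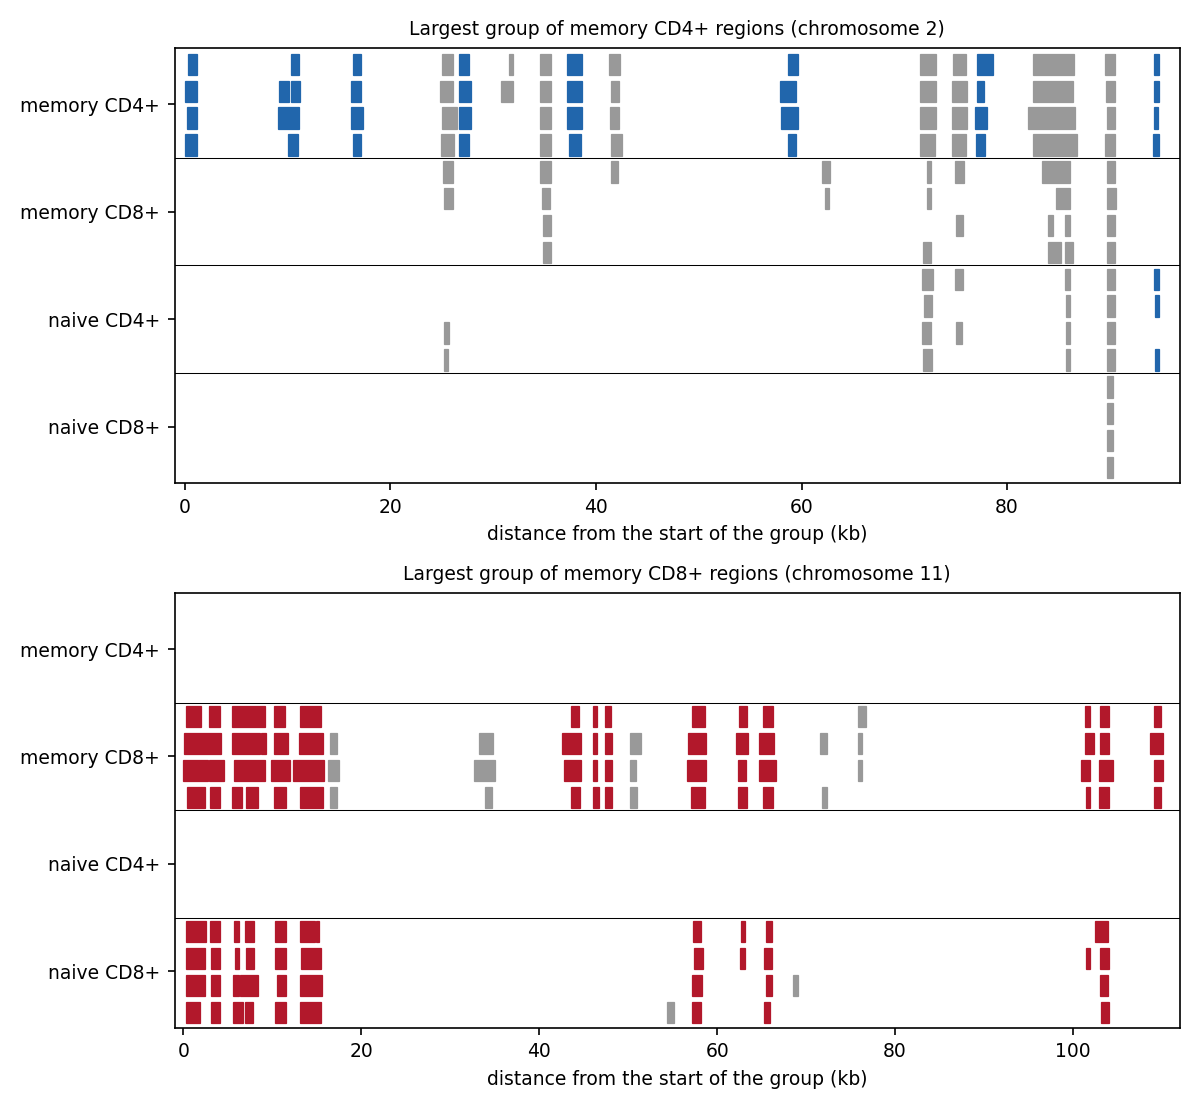
Peaks in the largest group of CD4+ lineage regions (top, chromosome 2) and of CD8+ lineage regions (bottom, chromosome 11), with distance from the start of the group in kb on the horizontal axis and 1 line of boxes for each of the 4 libraries of a population. Coloured boxes are peaks in lineage regions and grey boxes all other peaks: the chromosome 2 group has 1 of its 8 regions open in naive cells, and the chromosome 11 group has no peak in any CD4+ library, memory or naive.

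Chromosomes differed in the balance of the lineages. CD8+ lineage regions made up 62.8% of lineage regions on chromosome 11 (98 against 58 CD4+) and 61.8% on chromosome 2 (126 against 78). They made up 28.4% on chromosome 17 (25 against 63), 37.3% on chromosome 18 (25 against 42), 38.1% on chromosome 20 (43 against 70) and 38.6% on X (22 against 35). The chromosomes named are the extremes, and the others lay between 41.8% (chromosome 10) and 59.7% (chromosome 1). Over all chromosomes there were 1603 CD8+ against 1551 CD4+ lineage regions. These shares are a description, since neighbouring regions are not independent.

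Regions open in all 8 libraries also differed in strength. Strength was tested by limma on normal scores of each library's ranks among the 27662 regions. In total 5372 (19.4%) passed the threshold of 0.05 after Benjamini-Hochberg adjustment, 2703 stronger in memory CD4+ (9.77%) and 2669 stronger in memory CD8+ cells (9.65%). The median difference among them was −13.8 and 14.4 percentile points, CD8+ minus CD4+, and 728 and 850 differed by more than 20 points. The values of the 4 CD4+ and 4 CD8+ libraries did not overlap in 2614 and 2585 of them, and over all 27662 regions in 3500 (12.7%) with CD4+ higher and 3530 (12.8%) with CD8+ higher. All 4 animal and time pairs had the same sign in 2697 and 2653, and over all regions in 6341 (22.9%) and 6446 (23.3%). The test uses the same values, so these counts describe the called regions and add no support to them. With the summit −log10 p in place of the area score the numbers were 1685 and 1592. A difference of the lineages between the animals passed in 0 regions (limma, lowest adjusted p 0.226, 1547 at an unadjusted p under 0.05), and one between the times in 0 (limma, lowest adjusted p 0.994, 1229 at an unadjusted p under 0.05).

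Width, the bases covered by peaks within a region, differed in fewer regions. By limma on log2 bases, 1922 of 27662 (6.95%) passed, 1041 wider in CD4+ (3.76%) and 881 wider in CD8+ cells (3.18%), with median folds, CD8+ over CD4+, of 0.623 and 1.64. More than 2-fold differences in width were seen in 227 and 228. Both width and strength passed in 1627 regions, always in the same direction, which is 84.7% of those called for width and 30.3% of those called for strength. The area score grows with the width of a peak, so they are not independent readouts. The number wider in CD4+ cells moved with single libraries: it was 616, 671 and 626 without the CD4+ library of animal 1 after, animal 2 before or animal 2 after treatment. Among regions with exactly 1 peak in each library, 616 and 525 passed.

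The region ranked first for CD4+ cells by both width and summed area score lay on chromosome 9 at 124567323 to 124572061. By the highest single area score the region on chromosome 12 below was ahead of it (difference of normal scores −2.57 against −2.50), and by the summit −log10 p the one on chromosome 11 (−3.07 against −1.98). Its peaks covered 4262, 4510, 3986 and 4475 bp in memory CD4+ and 730, 638, 687 and 727 bp in memory CD8+ libraries, with no overlap (limma, log2 difference −2.64, SE 0.114, adjusted p = 1.34e-05). Among the regions open in all 8 libraries its strength was at the 71.8 to 79.6th percentile in CD4+ and at the 0.190 to 10.4th in CD8+ cells (limma adjusted p = 0.00257). In naive cells it covered 4350 to 4739 bp in CD4+ and 3114 to 4322 bp in CD8+ libraries, so memory CD8+ cells alone had the narrow form. The very wide region on chromosome 12 at 91358397 to 91376806 stood at the 99.7, 95.3, 98.7 and 91.4th percentile in CD4+ and at the 55.7, 22.2, 30.0 and 24.2th in CD8+ libraries (limma adjusted p = 0.00212). It was open in all naive CD4+ and no naive CD8+ library. A narrow region on chromosome 11 at 49294765 to 49296694 stood at 56.7, 54.9, 51.8 and 53.4 in CD4+ against 0.450, 0.645, 1.11 and 2.77 in CD8+ libraries (limma adjusted p = 9.98e-05), and in naive cells it covered similar stretches in both lineages, 1567 to 1930 bp and 1487 to 1616 bp. The other 3 named for strength lay at 215570149 to 215572670 of chromosome 1 (mean percentile 46.4 against 1.40) and, on chromosome 16, at 25478026 to 25479372 (36.4 against 2.31) and 75089831 to 75094109 (76.6 against 11.0).

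By width, 5 more regions led on the CD4+ side. Chromosome 16 at 3791084 to 3794218 was covered over 2430, 2525, 2843 and 3039 bp in CD4+ and 444, 515, 764 and 574 bp in CD8+ libraries (limma adjusted p = 7.14e-05). Chromosome 4 at 55415198 to 55424619 was covered over 8122 to 9319 bp against 1291 to 2366 bp (limma adjusted p = 0.000221) and had no peak in any naive CD8+ library. The same was seen on chromosome 20 at 67708065 to 67711855, with 2859 to 3770 bp against 445 to 1575 bp and no naive CD8+ peak. On chromosome 6, the regions at 167775328 to 167779185 and at 55068972 to 55071860 had 0.217 and 0.232 times the CD4+ width in CD8+ cells.

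On the CD8+ side, the region on chromosome 15 at 106227259 to 106231205 ranked first by bases covered. By the width of the widest peak the region on chromosome 10 given next was ahead of it (log2 difference 2.61 against 2.55). It was covered over 355, 384, 361 and 356 bp in CD4+ and 3317, 3237, 3946 and 2857 bp in CD8+ libraries, a 9.09-fold difference with no overlap (limma, log2 difference 3.18, SE 0.0904, adjusted p = 2.44e-06). Its strength was at the 0.862 to 3.05th percentile in CD4+ and at the 63.6 to 73.2th in CD8+ libraries. Naive CD8+ libraries covered 1575 to 2977 bp of it, while naive CD4+ libraries had a peak in only 2 of 4, of at most 358 bp. The region on chromosome 10 at 41671035 to 41677591 was covered over 995, 892, 1142 and 909 bp in CD4+ and 6011, 6540, 6557 and 6234 bp in CD8+ libraries, 6.44-fold (limma adjusted p = 2.44e-06). Its naive values, 492 to 663 bp in CD4+ and 2938 to 4361 bp in CD8+ libraries, were ordered in the same way.

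A pair of regions on chromosome 4 was wide in memory CD8+ cells and rarely found in naive cells. At 67715045 to 67719929 the strength was at the 24.1, 2.91, 2.26 and 4.51th percentile in CD4+ and at the 91.4, 92.9, 90.7 and 85.4th in CD8+ libraries, the largest strength difference of all named regions (limma, difference of normal scores 2.88, SE 0.274, adjusted p = 0.000653). At 67548959 to 67552773 the peaks covered 694, 621, 639 and 706 bp in CD4+ and 3735, 3815, 3560 and 3374 bp in CD8+ libraries, 5.43-fold (limma adjusted p = 8.7e-06). Each was open in 2 of the 4 naive CD8+ and in no naive CD4+ library. Low in CD4+ and high in CD8+ libraries were also the regions at 62476794 to 62479978 of chromosome 20 (mean percentile 1.84 against 72.3), 150169102 to 150171385 of chromosome 5 (0.742 against 45.6) and 198413671 to 198416472 of chromosome 1 (0.815 against 51.4). The region on chromosome 5 had no peak in any naive library. On chromosome 6 at 146333189 to 146340878 and chromosome 8 at 125870882 to 125874737 the width was 5.35-fold and 4.90-fold that of CD4+ cells, and both were open in all 8 naive libraries.

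**Figure D5:**
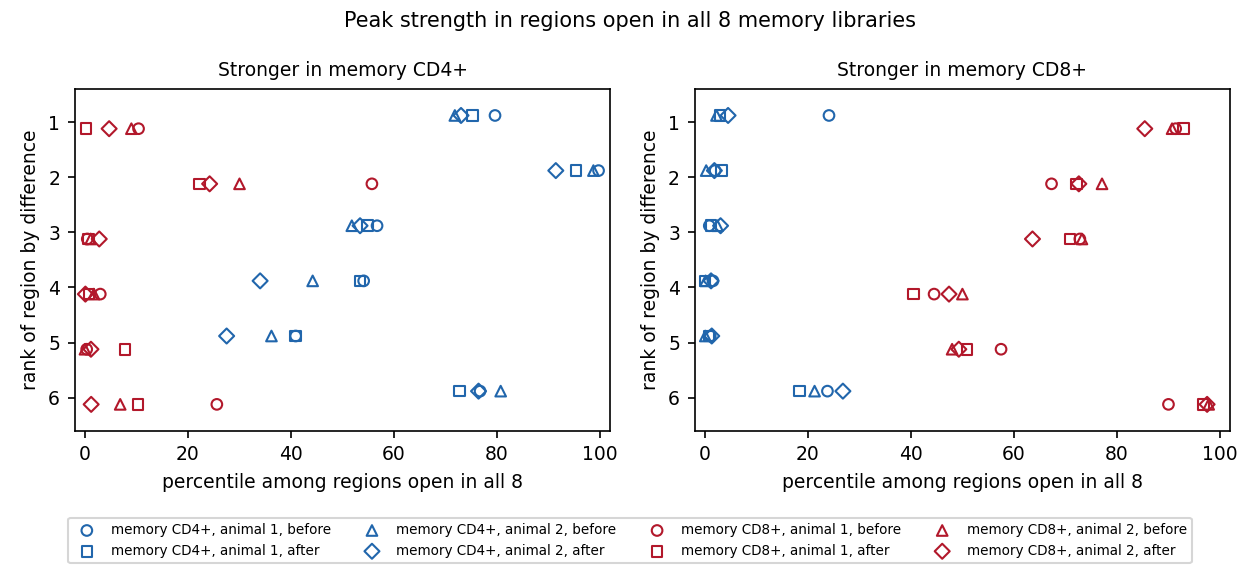
Strength percentile among the 27662 regions open in all 8 memory libraries (horizontal axis) at the 6 regions with the largest difference in each direction (vertical axis, rank), with 1 symbol per library, blue for memory CD4+ and red for memory CD8+. The 12 regions were taken from those whose lineages do not overlap; at the first CD8+ region the CD4+ library of animal 1 before treatment lies at 24.1 and the other CD4+ libraries at 2.26 to 4.51.

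Regions that differed in strength between the memory populations and were open in all naive libraries mostly differed the same way in naive cells. Among the 24520 regions open in all 16 libraries, 2431 were stronger in memory CD4+ cells. Of these, 2193 (90.2%) had the higher mean percentile in naive CD4+ cells, against 44.6% of all 24520 regions. Of 1941 stronger in memory CD8+ cells, 1756 (90.5%) were higher in naive CD8+ cells, against 55.4% of all 24520 regions. These sets hold 2431 of the 2703 regions called stronger in CD4+ cells but only 1941 of the 2669 called stronger in CD8+ cells. The rest lacked a peak in at least 1 naive library and were not read here. The differences were smaller in naive cells: the medians, CD8+ minus CD4+, were −5.52 points in naive against −12.5 in memory cells for the first set, and 6.29 against 13.1 for the second. In the 4 animal and time pairs of naive libraries the medians were −7.63, −6.06, −4.03 and −4.11 for the first set and 7.67, 7.50, 5.63 and 5.04 for the second, so every pair had the direction of the memory cells. The smaller naive values are a description, since the regions were chosen on the memory values.

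Regions open in all 8 libraries that lay within 50 kb of lineage regions leaned to the same lineage. Near CD4+ lineage regions only, 730 of 3367 (21.7%) were stronger in CD4+ and 150 (4.46%) in CD8+ cells. Near CD8+ lineage regions only, 125 of 2958 (4.23%) were stronger in CD4+ and 867 (29.3%) in CD8+ cells. Among 21010 regions near neither the shares were 8.61 and 7.61%. The median difference was −1.70 points near CD4+ and 3.14 points near CD8+ lineage regions, with each of the 4 pairs between −1.95 and −1.60 and between 3.01 and 3.51. Presence and strength come from the same libraries, so these shares are a description without a test.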

How the data were processed

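ATAC-seq libraries were deposited as 1 peak list per library, so replicates had not been pooled. Per the submitters' processing notes, cutadapt 1.18, Bowtie2 2.3.4.1 and Genrich 0.6 were used with the build rheMac10; how they were set, and whether reads were shifted for the transposase or deduplicated, is not given in the sources used here. Per peak, the deposited lists hold an area score from the authors' caller (lowest value 200) and the summit −log10 p as deposited by the authors (lowest value 2.42). In the main tests, scores and −log10 values served to order or select peaks inside 1 list and were not compared between lists. One alternative for strength compared log2 area scores between lists after centring on the library median. By limma it gave 2824 regions higher in CD4+ and 2974 higher in CD8+ cells. Lists of the 8 memory libraries held 39426 to 42034 peaks. Counts of reads were not used here, so no interval for counting error is given.

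Peaks sharing at least 1 bp were merged, and the percentile of a region is that of its highest peak in the list. Presence was compared by a two-sided Fisher's exact test in regions open in 4 of 8 libraries. Strength, the summed area score of a region, and log2 bases covered, centred on the library median, were tested with limma in the regions open in all 8. The main models had no term for animal, time or pair. P-values were adjusted by Benjamini-Hochberg with a threshold of 0.05, and list totals and naive shares were compared by exact permutation tests. Titles give the pairing by animal and time: deviations from the group means of same-numbered libraries correlated at 0.283, 0.269, 0.379 and 0.367, against at most 0.227, 0.271, 0.189 and 0.162 for other pairings of each. Named regions were the 10 strongest lineage regions in each direction, the 6 with the largest difference in strength and in width among called regions without overlap, the 4 groups with the most regions, and the 3 strongest without naive peaks.

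The members, comparisons and lists were chosen with earlier results of these data known. Gene lists, marker genes and motifs were not analysed here, since they need positions of genes or bases in rheMac10. Tests for a difference between animals or times and some alternatives of the naive, other-animal and neighbourhood results were chosen after the data were seen. Alternatives were lists of equal length, a summit −log10 p of at least 3.42, coverage of 50% of a region, windows of 500 bp, autosomes only, no filter, the pairing as a block, and each animal, time and library. For strength they were also the highest single area score, the log2 area score centred on the library median, and the summit −log10 p. The tests of presence and strength were run on simulated data. These had independent libraries, so they do not cover the effect of libraries that share an animal. Software was limma 3.58.1 in R 4.3.3, and Python 3.11.15 with scipy 1.17.1, numpy 2.4.6, matplotlib 3.10.9 and pandas 2.3.3.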

Additional observations from a re-analysis of the deposited data

Results flagged for a closer look

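In 9 of 80 groups of 4 libraries, all 9 at named regions, 1 library lay far from the other 3 relative to their spread. Chance gives this in about 1 in 20 groups. The gap can be small where the other 3 lie close together, as on chromosome 4 at 46539667 (70.9 against 68.0 to 68.3). Among lineage regions this was the memory CD4+ library of animal 2 after treatment on chromosome 16 at 3952062 (73.7th percentile), that of animal 2 before treatment on chromosome 4 at 46539667 (70.9), and the memory CD8+ library of animal 1 before treatment on chromosome 9 at 97093065 (67.0). Among strengths it was the CD8+ library of animal 1 after treatment on chromosome 16 at 25478026 (7.74th percentile), the CD4+ library of animal 1 before treatment on chromosome 4 at 67715045 (24.1) and the CD8+ library of animal 1 before treatment on chromosome 10 at 41671035 (90.0). Among widths, chromosome 6 at 146333189 had 2095 bp in the CD4+ library of animal 1 after treatment and 5724 bp in the CD8+ library of animal 1 before it, and chromosome 4 at 67715045 had 4885 bp in the CD8+ library of animal 2 before treatment.

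The share of peaks on the X chromosome, memory CD8+ minus memory CD4+, was −0.045 percentage points before and 0.055 after treatment (means of 2 pairs, both animals in the same direction at each time); this difference was not tested. In memory cells the mean over all pairs was 0.005 ± 0.0656 and in naive cells −0.127 ± 0.0222 (SD, n = 4 pairs), a difference of 0.132 points (exact permutation test, two-sided, p = 0.0286, adjusted over 4 list totals 0.114).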

How the results depend on the processing

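The numbers of CD4+ and CD8+ lineage regions were 1411 and 1686 with lists of equal length, 1006 and 1300 with the stricter summit threshold, 1959 and 1716 with 50% coverage, 1622 and 1677 with windows, and 1516 and 1581 on autosomes, and all of these passed Fisher's exact test. With no filter 0 and 0 passed, because more regions were adjusted for (lowest adjusted p 0.204). With the pairing as a block (exact McNemar test) 0 and 0 passed, because 4 pairs allow no p under 0.125. With a library left out 0 passed in all 8 cases, while 1647 to 1902 CD4+ and 1652 to 1936 CD8+ regions separated the rest. Fewer libraries separate more regions: animal 1 alone gave 3244 and 2694, animal 2 alone 3423 and 3010, before treatment alone 2446 and 2454, and after treatment alone 3105 and 2409. For strength, the summit −log10 p gave 1685 and 1592 (the cause was not tested), the block 3032 and 2995, and leaving out a library 1812 to 2852 and 1945 to 2520. For width, regions with 1 peak in each library gave 616 and 525 (fewer regions tested), the block 977 and 811, and leaving out a library 616 to 1082 and 613 to 837. None of the list totals passed under any setting; leaving out a library moved CD8+ minus CD4+ from −1210 to −422 peaks, −2.87 to 0.766 Mb, −29.2 to 34.8 bp in median width (reversed to 2.42, 1.75 and 34.8) and −0.0385 to 0.0722 points in the X share (reversed to −0.0325, −0.0149, −0.0385 and −0.0263). The naive differences kept their sign in all settings and stayed past the threshold in the unpaired ones that kept all libraries or all but 1. When a library was left out, they were −34.6 to −26.4 and 23.1 to 25.5 points. With 1 animal or 1 time alone, too few libraries remain for the exact permutation test to pass the threshold. With the pairing as a block, −31.1 and 24.1 points did not pass (exact sign-flip p = 0.125), because 4 pairs allow no smaller p. In all, 159 alternative values for strength and 134 for width at named regions kept direction and call, and for presence 92 kept and 188 lost the call, with no reversal. Named regions were chosen among the called regions of these same libraries, so these counts describe them and add no support. Depth was unknown, so regions near the calling threshold of a shallower library cannot be told from regions that were closed.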
